A study of Mus musculus with 6 samples.

Results

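The genes described here are 10 oncofetal and imprinted growth genes, Afp, Gpc3, H19, Igf2, Dlk1, Meg3, Peg3, Mest, Igf2bp3 and Lin28b, out of 22911 gene symbols on the array. They were found through the accession of each probe that is not a control, which gave 19 of 56605 probes. The data are 1-colour Agilent arrays of 6 frozen mouse hepatocellular carcinomas (HCC), each on its own array, all of strain C57BL/6. Of these, 2 tumours were Epcam-derived HCC with CLC and 2 were Epcam-derived HCC without CLC, all 4 from tamoxifen-treated Epcam-AID mice kept on a 0.1% DDC diet for 8 months. The other 2 were Albumin-derived HCC without CLC, from Alb-AID mice aged 90 weeks. The labels do not expand CLC or AID, give no tamoxifen or DDC for the Alb-AID mice, and do not say whether the 2 tumours of a group came from separate mice or litters, so that a p-value measures only the spread between these tumours. No tumour-free liver was analysed here. An age is given for the Alb-AID mice alone, and diet and tamoxifen for the Epcam-AID mice alone, so origin cannot be told apart from these between Epcam-derived and Albumin-derived tumours.

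Oncofetal genes are active in fetal liver, silenced around birth and often active again in liver cancer. Imprinted genes are transcribed mainly from the maternal or the paternal copy, and many of them set fetal growth. Igf2, the fetal insulin-like growth factor, and the non-coding RNA H19 share enhancers and are imprinted in opposite directions, while Dlk1 and Meg3 form a second such pair. Lin28b blocks the maturation of let-7 microRNAs, which repress growth genes of this programme such as Igf2bp3. In a bulk tumour, fewer cells of a type and less RNA per cell cannot be told apart.

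All levels below are log2 normalised signal, on which 0 is the 75th percentile of that tumour's array, so that levels are compared between tumours for 1 probe and not between probes. A probe was measured where the scanner software called it well above background. Where 1 tumour of a group was not, its level and the group's difference rest on a signal that was not measured and are not exact. Among the members this holds for with-CLC replicate 1 in Dlk1, Meg3, Peg3, Igf2bp3 and Lin28b, for Albumin-derived replicate 2 in Dlk1 and for 1 tumour of each group in Igf2, and among the other genes named for Pappa, Mirg, Slc22a3, Ctcfl, Zfp57, Zhx2, Bex2 and Prom1. The 6 arrays had 52.0% to 64.6% of probes well above background, lowest in Epcam-derived HCC with CLC replicate 1, and no saturated spot. Slide 1 held both Albumin-derived tumours and with-CLC replicate 1, and slide 2 held the other 3 tumours, so slide and group cannot be told apart between Epcam-derived tumours without CLC and Albumin-derived tumours. Summed normalised signal of the 12 hepatocyte markers ranged from 2410 to 5620, with all 12 well above background in each tumour and the 2 Albumin-derived tumours highest. The defining progenitor marker Epcam was not well above background in Epcam-derived replicate 1 without CLC or in Albumin-derived replicate 1.

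Single tumours stood out more than groups. H19 and Igf2 were far higher in 1 Epcam-derived tumour without CLC than in its group mate and in the other 4 tumours. Gpc3 was high in 1 tumour of each Epcam-derived group and low in the other. Igf2bp3 was lower in all 4 Epcam-derived tumours than in both Albumin-derived tumours. It was the only member with an unadjusted limma p under 0.05 in any comparison. It had that p in both comparisons with Albumin-derived tumours, as did 20.0% (without CLC) and 16.0% (with CLC) of all features. None of the 9 members that could be tested passed the threshold over all features in any comparison.

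**Figure D1:**
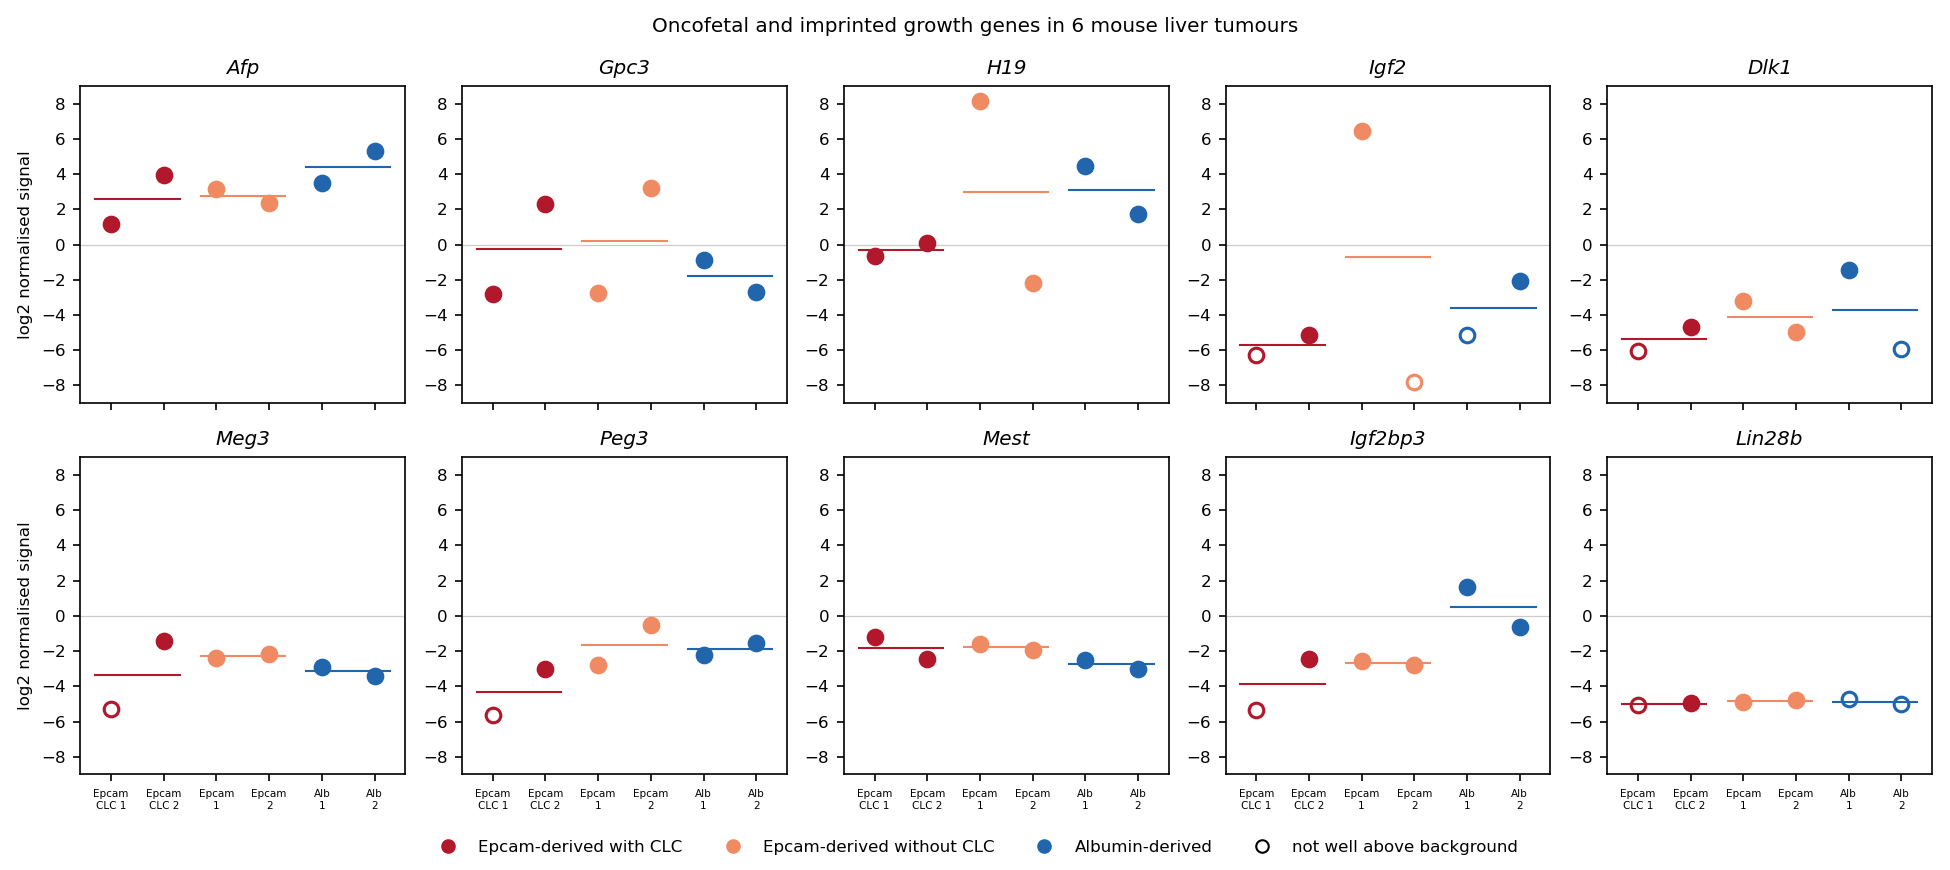
Log2 normalised signal (vertical axis, 0 at the array's 75th percentile) of the 10 members in each tumour, 1 point per tumour and 1 panel per gene, shown for the first probe of each gene. Open points were not well above background and lines are group means of 2 tumours. H19 and Igf2 reach 8.14 and 6.42 in Epcam-derived replicate 1 without CLC, and Gpc3 splits each Epcam-derived group.

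H19 is a non-coding RNA that is abundant in fetal liver and is transcribed from the maternal copy. It is the host of the microRNA miR-675, and Igf2 is the host of miR-483. Their mature sequences, from RefSeq (GRCm38.p6), are shown because they lie inside the 2 transcripts that varied most. Capitals mark the seed, bases 2 to 8. The microRNAs themselves are not analysed here.
miR-675-5p (chr7:142577112-142577133, minus strand): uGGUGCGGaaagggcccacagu
miR-675-3p (chr7:142577078-142577099, minus strand): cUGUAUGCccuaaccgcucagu
miR-483-5p (chr7:142654968-142654989, minus strand): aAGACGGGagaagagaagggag
miR-483-3p (chr7:142654932-142654952, minus strand): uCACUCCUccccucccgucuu
The 4 seeds differ from each other.

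The H19 level was -0.67 and 0.10 in the Epcam-derived tumours with CLC, 8.14 and -2.18 in those without CLC, and 4.48 and 1.75 in the Albumin-derived tumours. The first tumour without CLC was thus the highest and its group mate the lowest of the 6, and the tumours with CLC lay below both Albumin-derived tumours. H19 in replicate 1 without CLC was 448-fold and 263-fold higher than in the tumours with CLC, 1280-fold higher than in replicate 2 without CLC, and 12.6-fold and 83.9-fold higher than in the Albumin-derived tumours. The log2 difference of 10.32 between the 2 tumours without CLC ranked 1 among the 27412 features tested. Only features well above background in both tumours of at least 1 group were tested, so genes measured in single tumours are not ranked. Igf2 is 1 of these, and on its brighter probe it was at least 4240-fold higher in replicate 1 than in replicate 2 without CLC. A further probe that the array names H19 without an accession was also highest in replicate 1 without CLC, at 4.77, with 0.62 in the next tumour, Albumin-derived replicate 1, and was not well above background in with-CLC replicate 1 and replicate 2 without CLC.

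The group means of H19 were -0.28 ± 0.54 with CLC, 2.98 ± 7.30 without CLC and 3.12 ± 1.93 in Albumin-derived tumours (SD, n = 2 each). The limma difference was -3.26 ± 3.20 (log2, SE) between tumours with and without CLC and -3.40 ± 3.20 between tumours with CLC and Albumin-derived tumours, with adjusted p of 0.999 and 0.649. Replicate 1 without CLC decided the first of these: the difference was 1.89 without that tumour and -8.42 without its group mate. Between Epcam-derived tumours without CLC and Albumin-derived tumours the difference was -0.14 ± 3.20 (limma adjusted p = 0.987), and it was -5.29 without replicate 1 and 5.02 without replicate 2.

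Igf2 codes for the fetal growth factor that signals through the Igf1 receptor. Its level on the brighter of 2 probes was -6.29 and -5.16 with CLC, 6.42 and -7.80 without CLC, and -5.12 and -2.06 in Albumin-derived tumours. Only with-CLC replicate 2, replicate 1 without CLC and Albumin-derived replicate 2 were well above background, 1 tumour in each group, so that Igf2 did not pass the filter and is not among the 9 members tested. Igf2 in replicate 1 without CLC was 3050-fold higher than in with-CLC replicate 2 and 357-fold higher than in Albumin-derived replicate 2. Against the tumours where it was not well above background it was at least 1440-fold higher than in with-CLC replicate 1, at least 4240-fold higher than in its group mate and at least 2300-fold higher than in Albumin-derived replicate 1. The other probe was well above background in replicate 1 without CLC alone, at least 145-fold above each of the other 5 tumours.

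H19 and Igf2 therefore had their highest value in the same tumour, and in its group mate H19 was lowest and neither Igf2 probe was well above background. In a fit without the filter, over 45608 features, the Igf2 differences were -5.03 ± 4.40 for with CLC minus without CLC, 2.90 ± 4.40 for without CLC minus Albumin-derived and -2.13 ± 4.40 for with CLC minus Albumin-derived (limma, adjusted p = 0.914, 0.749 and 0.939). These differences include the tumours in which Igf2 was not well above background. RefSeq gives 4 promoters for Igf2 and none of them holds TATAAA. The one with the most CG pairs, 24 in 300 bases, is shown because Igf2 had the widest range of the members; lower case throughout marks that none of the searched motifs was found in it.
Igf2 promoter (chr7:142658755-142659054, minus strand): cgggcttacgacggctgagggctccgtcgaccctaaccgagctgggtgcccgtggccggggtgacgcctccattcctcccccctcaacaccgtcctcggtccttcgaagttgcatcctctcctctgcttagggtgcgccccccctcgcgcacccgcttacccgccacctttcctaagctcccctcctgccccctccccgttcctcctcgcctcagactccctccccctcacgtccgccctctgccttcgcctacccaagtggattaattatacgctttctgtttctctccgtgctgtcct

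Of the genes around H19 and Igf2 on chromosome 7, those that passed the filter did not share that range. Syt8, Prr33 and Igf2os did not pass it and were not read. A gene measured in 1 tumour alone could not pass it, so such a neighbour would be missed here. Within 300 kb, a window chosen after the values were seen, Ctsd, Lsp1, Tnnt3 and Mrpl23 had levels of 5.5 to 6.77, 1.64 to 2.53, -2.51 to -1.25 and 3.66 to 5.01 over the 6 tumours. Nctc1, a non-coding RNA next to H19, had its highest level in the same tumour, at -1.16 in replicate 1 without CLC, with -2.40 in the next. Ins2, a preproinsulin gene on the far side of Igf2, was well above background in both Albumin-derived tumours alone, at -2.64 and -3.07. It was at least 6.17-fold lower without CLC and at least 3.94-fold lower with CLC than there. Ins2 passed the filter through the Albumin-derived tumours alone. No p is given for it, since its fitted differences rest on signal not measured in any Epcam-derived tumour.

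**Figure D2:**
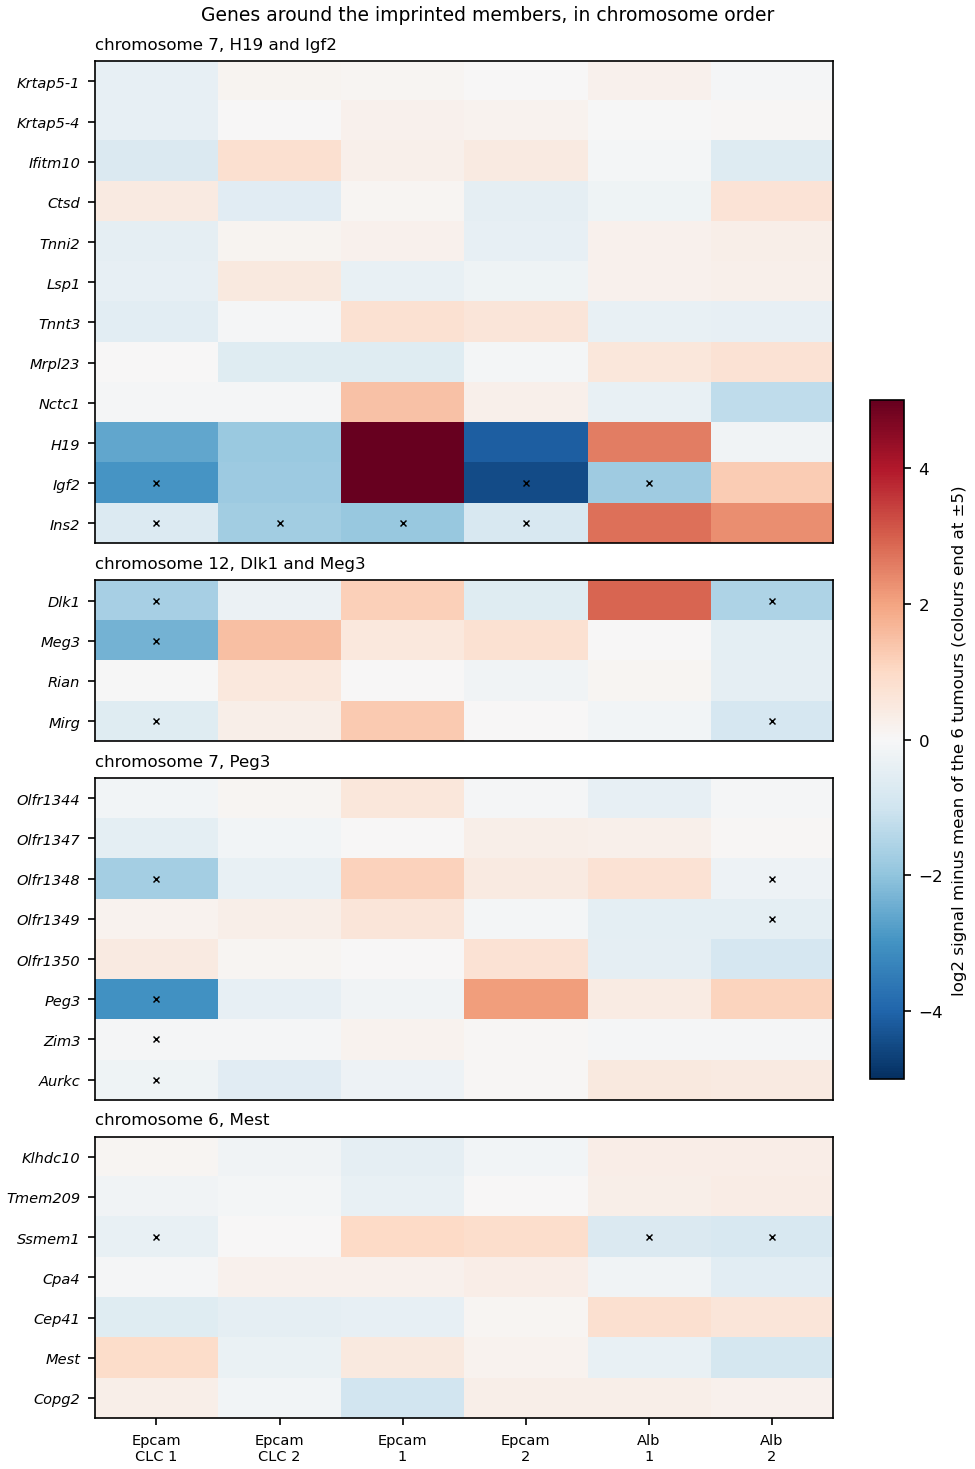
Genes within 300 kb of the imprinted members that passed the filter, and Igf2, which did not, in chromosome order from top to bottom (rows), in the 6 tumours (columns); colour is log2 signal minus the gene's mean over the 6 tumours, ending at 5 in either direction, and a cross marks a value not well above background. H19 and Igf2 are both at the upper end of the scale in replicate 1 without CLC, and Rian hardly varies beside Dlk1 and Meg3.

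Erythroid markers were in part unequal between the same 2 tumours. Their summed normalised signal, over 6 measured of 7, was 535 and 71.0 with CLC, 589 and 67.5 without CLC, and 192 and 126 in Albumin-derived tumours. Most of these sums was the alpha-globin gene Hba-a1, at 9.02 and 6.02 with CLC, 9.14 and 5.93 without CLC, and 7.48 and 6.92 in Albumin-derived tumours. Hbb-b1 and Slc4a1 were also higher in replicate 1 without CLC than in its group mate, by 3.87 and 3.78, while Alas2 differed by 0.17 and Klf1, a transcription factor gene of red cell precursors, by -0.26. Stellate cell and fibroblast markers, all 11 measured, summed to 101 and 84.7 with CLC, 116 and 49.2 without CLC, and 43.3 and 71.8 in Albumin-derived tumours. The part of either cell type in the H19 and Igf2 levels was not tested.

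Afp codes for alpha-fetoprotein, the main serum protein of the fetal liver and a marker of hepatocellular carcinoma. Its level was 1.18 and 3.97 with CLC, 3.14 and 2.33 without CLC, and 3.50 and 5.32 in Albumin-derived tumours, all well above background. Albumin-derived replicate 2 was highest and with-CLC replicate 1 lowest, 17.6-fold apart, and the 2 tumours without CLC lay below both Albumin-derived tumours. The differences were -0.16 ± 1.05 for with CLC minus without CLC, -1.67 ± 1.05 for without CLC minus Albumin-derived and -1.83 ± 1.05 for with CLC minus Albumin-derived (limma, adjusted p = 0.999, 0.413 and 0.456).

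The Afp promoter is shown beside that of Gpc3, the other surface or serum marker of liver cancer among the members, because they differ in base composition. Sequences are 250 bases before to 50 after the annotated start, from RefSeq (GRCm38.p6). Capitals mark matches to TATAAA, the letters of a TATA box, and to CCAAT, the letters of a box bound by NF-Y, on either strand; the matches shown do not overlap.
Afp promoter (chr5:90490464-90490763, plus strand): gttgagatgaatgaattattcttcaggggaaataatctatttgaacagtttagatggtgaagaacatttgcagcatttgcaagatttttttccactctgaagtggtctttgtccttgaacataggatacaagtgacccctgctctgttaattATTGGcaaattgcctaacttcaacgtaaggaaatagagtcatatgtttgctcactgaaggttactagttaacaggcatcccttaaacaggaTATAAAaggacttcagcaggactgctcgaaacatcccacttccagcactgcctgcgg
Gpc3 promoter (chrX:52613925-52614224, minus strand): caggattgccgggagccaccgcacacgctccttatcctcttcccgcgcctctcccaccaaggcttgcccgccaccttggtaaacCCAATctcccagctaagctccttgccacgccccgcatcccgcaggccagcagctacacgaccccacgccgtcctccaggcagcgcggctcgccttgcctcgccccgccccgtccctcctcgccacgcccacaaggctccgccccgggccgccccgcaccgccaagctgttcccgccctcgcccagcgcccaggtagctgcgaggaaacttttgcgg
In the Afp promoter, TATAAA begins 7 bases before the annotated start, a CCAAT lies on the opposite strand, and the window holds 3 CG pairs. The Gpc3 promoter holds 30 CG pairs, a CCAAT and no TATAAA. Of 32851 promoters of the same length, 13.6% hold TATAAA and 37.4% CCAAT, and the median is 7 CG pairs.

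Gpc3 codes for glypican-3, a heparan sulphate proteoglycan of the cell surface that restrains growth in the embryo and is used as a marker of hepatocellular carcinoma. Its level was -2.80 and 2.32 with CLC, -2.76 and 3.21 without CLC, and -0.85 and -2.68 in Albumin-derived tumours. Replicate 2 of each Epcam-derived group was high and replicate 1 low, while both Albumin-derived tumours were low. Replicate 1 was 34.9-fold lower than replicate 2 with CLC and 62.4-fold lower without CLC, a difference that ranked 24 of 27412 features among tumours without CLC. The log2 difference was -0.47 ± 2.42 for with CLC minus without CLC, 2.00 ± 2.42 for without CLC minus Albumin-derived and 1.53 ± 2.42 for with CLC minus Albumin-derived (limma, adjusted p = 0.999, 0.672 and 0.794). The last of these turned to -1.03 without with-CLC replicate 2, and to the same value with slide as a block. The labels do not say whether tumours with the same replicate number were paired. Within the group without CLC, Gpc3 was high in the tumour in which H19 was low.

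Dlk1, a non-canonical Notch ligand of hepatoblasts, and Meg3, a maternally transcribed non-coding RNA, lie next to each other on chromosome 12. The level of Dlk1 was -6.03 and -4.68 with CLC, -3.20 and -4.98 without CLC, and -1.47 and -5.93 in Albumin-derived tumours, where with-CLC replicate 1 and Albumin-derived replicate 2 were not well above background. Albumin-derived replicate 1 was highest. The limma differences were -1.26 ± 1.51 for with CLC minus without CLC, -0.39 ± 1.51 for without CLC minus Albumin-derived and -1.65 ± 1.51 for with CLC minus Albumin-derived (adjusted p = 0.999, 0.906 and 0.638). The 2 Dlk1 probes disagreed on Albumin-derived replicate 2: on the other probe both Albumin-derived tumours were well above background and highest, at -3.55 and -4.05. On that probe Dlk1 was not well above background in either tumour with CLC, at least 1.44-fold lower than without CLC and at least 2.04-fold lower than in Albumin-derived tumours.

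Meg3 was at -5.27 and -1.42 with CLC, -2.38 and -2.16 without CLC, and -2.91 and -3.40 in Albumin-derived tumours. With-CLC replicate 2 was highest and with-CLC replicate 1, not well above background, lowest. The difference between groups was 0.88 ± 1.18 for without CLC minus Albumin-derived, with no overlap (limma adjusted p = 0.703), and with CLC it was -1.07 ± 1.18 against tumours without CLC and -0.19 ± 1.18 against Albumin-derived tumours (adjusted p = 0.999 and 0.956). Without with-CLC replicate 1 both turned positive, at 0.85 and 1.73. The 3 other Meg3 probes were well above background in 0 to 2 tumours and none passed the filter. Of the other RNAs of that cluster, Rian lay between -3.96 and -2.99 in all 6 tumours, and Mirg was highest in replicate 1 without CLC, at -2.97.

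Peg3, a paternally transcribed zinc finger gene, was at -5.65 and -3.03 with CLC, -2.79 and -0.54 without CLC, and -2.23 and -1.52 in Albumin-derived tumours. Both tumours with CLC, of which replicate 1 was not well above background, lay below all 4 others. The difference was -2.67 ± 1.08 for with CLC minus without CLC, a 6.38-fold lower signal (limma adjusted p = 0.999), and -2.47 ± 1.08 for with CLC minus Albumin-derived (adjusted p = 0.344). Both rest in part on replicate 1 with CLC: normexp background gave -1.09 and -1.03, and leaving out that tumour -1.36 and -1.15. A slide block leaves 1 tumour with CLC to carry each of these, and gave -1.36 and -3.78. The Peg3 promoter is shown because Peg3 was lowest in the tumours with CLC. Of these, replicate 2 was close to replicate 1 without CLC, at -3.03 against -2.79, and replicate 1 was not well above background. Capitals mark CCAAT, read here on the opposite strand as ATTGG.
Peg3 promoter (chr7:6730370-6730669, minus strand): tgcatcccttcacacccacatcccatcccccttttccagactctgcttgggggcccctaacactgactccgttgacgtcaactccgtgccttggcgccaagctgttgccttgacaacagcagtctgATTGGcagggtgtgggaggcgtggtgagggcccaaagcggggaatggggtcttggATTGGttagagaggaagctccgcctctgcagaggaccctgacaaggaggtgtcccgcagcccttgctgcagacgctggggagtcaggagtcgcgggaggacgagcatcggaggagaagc
It holds 13 CG pairs, 2 CCAAT and no TATAAA.

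Mest, a paternally transcribed gene for an enzyme of the alpha/beta hydrolase fold, was at -1.18 and -2.46 with CLC, -1.61 and -1.96 without CLC, and -2.50 and -2.99 in Albumin-derived tumours. On this probe, the brighter of 2, all 4 Epcam-derived tumours were higher than both Albumin-derived tumours, with-CLC replicate 2 only by -2.46 against -2.50. The other probe also passed the filter but was well above background in the tumours without CLC alone. Its level was -4.07 and -5.53 with CLC, -4.52 and -5.19 without CLC, and -5.18 and -5.37 in Albumin-derived tumours. On that probe the groups overlapped in every comparison. The differences were 0.96 ± 0.48 for without CLC minus Albumin-derived and 0.92 ± 0.48 for with CLC minus Albumin-derived (limma, adjusted p = 0.328 and 0.421). Mest and Afp ran in opposite directions over the 6 tumours, with Pearson r = -0.92, given as a description since the arrays share groups and slides. This pair was picked as the one with the largest absolute r among all pairs of tested members.

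Igf2bp3 codes for an RNA-binding protein of fetal tissue and tumours that binds Igf2 and other mRNAs. Its level was -5.36 and -2.43 with CLC, -2.56 and -2.77 without CLC, and 1.66 and -0.63 in Albumin-derived tumours. Both Albumin-derived tumours were higher than all 4 Epcam-derived tumours, and with-CLC replicate 1 was not well above background. The difference was -3.18 ± 1.14 for without CLC minus Albumin-derived, 9.08-fold lower (limma adjusted p = 0.216), and -4.41 ± 1.14 for with CLC minus Albumin-derived, 21.3-fold lower (limma adjusted p = 0.178). With 1 array left out these ranged from -4.33 to -2.04 and from -5.87 to -2.95, the last of them without with-CLC replicate 1, and normexp background gave -2.51 and -2.67. On a second probe Igf2bp3 was not well above background in any Epcam-derived tumour, and it was at least 6.28-fold lower without CLC and at least 3.96-fold lower with CLC than in Albumin-derived tumours. The promoter is shown as that of the member with the lowest adjusted p; its capitals mark CCAAT, and it holds 25 CG pairs.
Igf2bp3 promoter (chr6:49214905-49215204, minus strand): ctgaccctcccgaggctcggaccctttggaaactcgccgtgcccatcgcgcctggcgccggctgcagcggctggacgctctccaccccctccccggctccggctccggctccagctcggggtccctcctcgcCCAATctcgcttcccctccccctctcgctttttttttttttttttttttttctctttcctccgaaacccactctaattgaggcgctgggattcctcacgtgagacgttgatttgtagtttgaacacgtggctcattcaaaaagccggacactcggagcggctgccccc

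Lin28b was near the limit of detection throughout. Its brightest probe lay between -5.07 and -4.74 in all 6 tumours and was well above background in with-CLC replicate 2 and both tumours without CLC, and its other 2 probes were well above background in no tumour. With this probe not well above background in either Albumin-derived tumour, no fold can be given against them, and the difference between tumours with and without CLC was -0.17 ± 0.25 (limma adjusted p = 0.999). The let-7 microRNAs that Lin28b acts on share 1 seed, GAGGUAG, in all 8 family members matched in RefSeq, as these examples show with the seed in capitals; their levels are not analysed here.
let-7a-5p: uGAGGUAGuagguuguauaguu
let-7e-5p: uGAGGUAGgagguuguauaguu
let-7g-5p: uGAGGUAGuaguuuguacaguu

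Counted over the 9 members tested, 0 passed the adjusted threshold of 0.05 for with CLC minus without CLC, where 0% of all features did. Between tumours without CLC and Albumin-derived tumours 0 members passed, against 0.244% of all features (0.0584% higher and 0.186% lower), and between tumours with CLC and Albumin-derived tumours 0 passed, against 0.0620%. At an unadjusted limma p under 0.05 the members numbered 0, 1 and 1 in the same order of comparisons, against 3.48%, 20.0% and 16.0% of all features. The 1 member was Igf2bp3 in both.

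Groups did not overlap for 2 of 9 members between tumours with and without CLC, both lower with CLC (Peg3, and Lin28b through a tumour not well above background), against 30.1% of all features, of which 10.3% were higher and 19.8% lower. They did not overlap for 4 of 9 members between tumours without CLC and Albumin-derived tumours, against 55.2% of all features (30.4% higher and 24.8% lower): Meg3 and Mest were higher without CLC, and Afp and Igf2bp3 lower. The same number, 4 of 9, did not overlap between tumours with CLC and Albumin-derived tumours, against 50.8% of all features (23.8% higher and 27.0% lower), with Mest higher and H19, Peg3 and Igf2bp3 lower with CLC. The shares of 2 of 9, 4 of 9 and 4 of 9 lay below those of all features. Mest was counted on its brighter probe, and on its other probe the groups overlapped. The median log2 difference of the 9 members was -1.07, 0.04 and -1.65 in the 3 comparisons, beside -0.06, 0.06 and -0.01 over all features. Without Lin28b, which was not measured in Albumin-derived tumours, the last 2 medians of members were 0.03 and -1.74. The -1.07 is the value of Meg3 and the -1.65 that of Dlk1. Both rest on with-CLC replicate 1, where these genes were not well above background, and Dlk1 also on Albumin-derived replicate 2. With normexp background these differences of Meg3 and Dlk1 were -0.05 and -0.83, so the size of both medians is not exact. The 2 comparisons with Albumin-derived tumours share those tumours, and both that involve CLC share the tumours with CLC, in which replicate 1 had the lowest level of 5 of the 10 members. Among these 5, Gpc3 was close to a tie with replicate 1 without CLC.

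**Figure D3:**
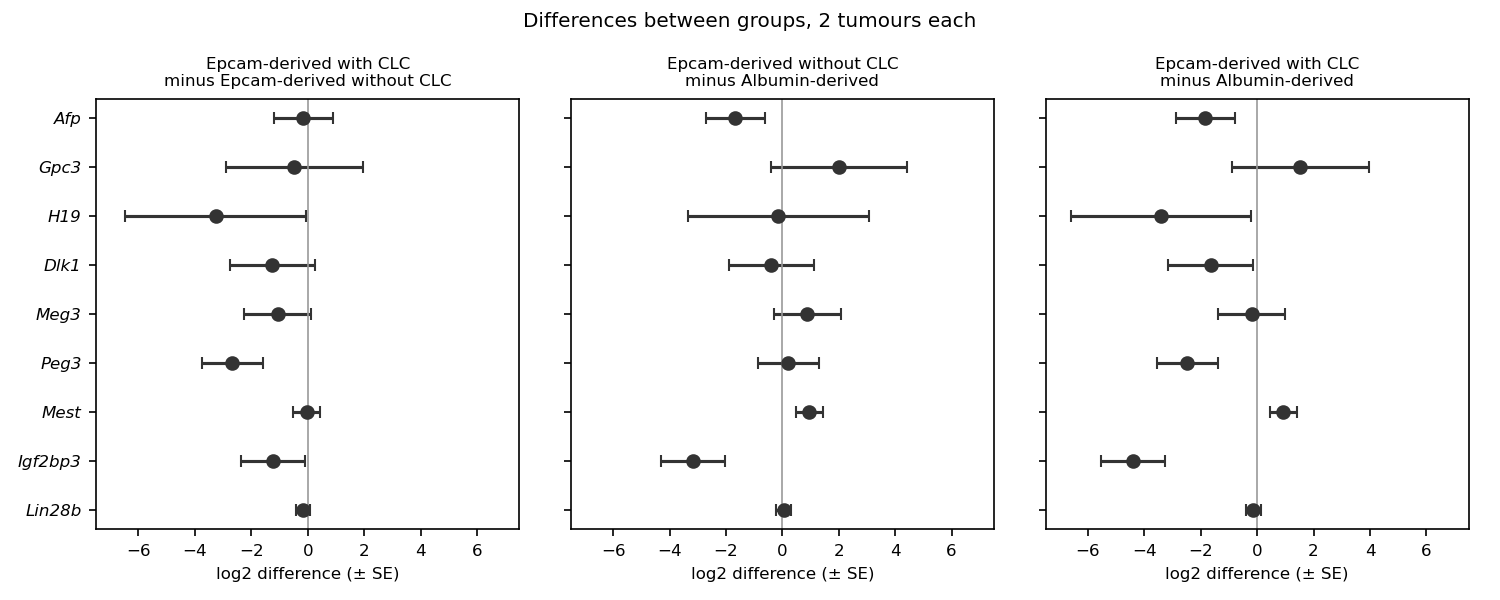
Log2 difference between group means (horizontal axis, points with ± SE from limma, 2 tumours per group) for the 9 tested members in each comparison. H19 and Gpc3 have the widest errors, 3.20 and 2.42, and Igf2bp3 lies at -3.18 and -4.41 against Albumin-derived tumours, in which Lin28b was not well above background.

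The difference between the 2 tumours of a group was above the median of all features for 8 of 9 members with CLC, 5 of 9 without CLC and 8 of 9 in Albumin-derived tumours. The 8 with CLC include Dlk1, counted at 1.35 with replicate 1 not well above background and with a lower bound of 0. The median absolute log2 difference between replicates was 2.62 with CLC, 0.81 without CLC and 1.82 in Albumin-derived tumours over the 9 members, beside 0.39, 0.38 and 0.34 over all 27412 features. With CLC, replicate 1 was not well above background for 5 of the 9 members, and with these at their lower bound the median was 1.28. H19 ranked 7 and Gpc3 19 among all features by the pooled SD within groups, and the median pooled SD was 1.52 for the members and 0.35 for all features. The 1.52 is the pooled SD of Igf2bp3, whose replicate difference with CLC was 2.93 and 1.64 at its lower bound. Pooled SDs of Dlk1, Meg3, Peg3 and Lin28b also include signal that was not measured, so the median of the members is not exact. Mest and Lin28b were steadier, with pooled SDs of 0.58 and 0.13. This ranking was chosen after the values were seen and is a description.

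Which tumours differed was not the same from gene to gene. Without CLC, H19, Gpc3 and Peg3 differed most between replicates, by 10.32, -5.96 and -2.25 for replicate 1 minus replicate 2, while Meg3, Igf2bp3 and Lin28b differed by -0.22, 0.21 and -0.09. With CLC, Gpc3 differed by -5.12 and H19 by -0.77, and Meg3 was at least 6.28-fold lower in replicate 1. In Albumin-derived tumours H19 differed by 2.73, and Dlk1 was at least 8.40-fold higher in replicate 1 on 1 probe but differed by 0.50 on the other. With-CLC replicate 1 was the lowest for Afp, Gpc3, Meg3, Peg3 and Igf2bp3. For Gpc3 this was close to a tie, at -2.80 against -2.76 in replicate 1 without CLC. With-CLC replicate 1 was the highest for Mest and was also the array with the fewest probes well above background.

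**Figure D4:**
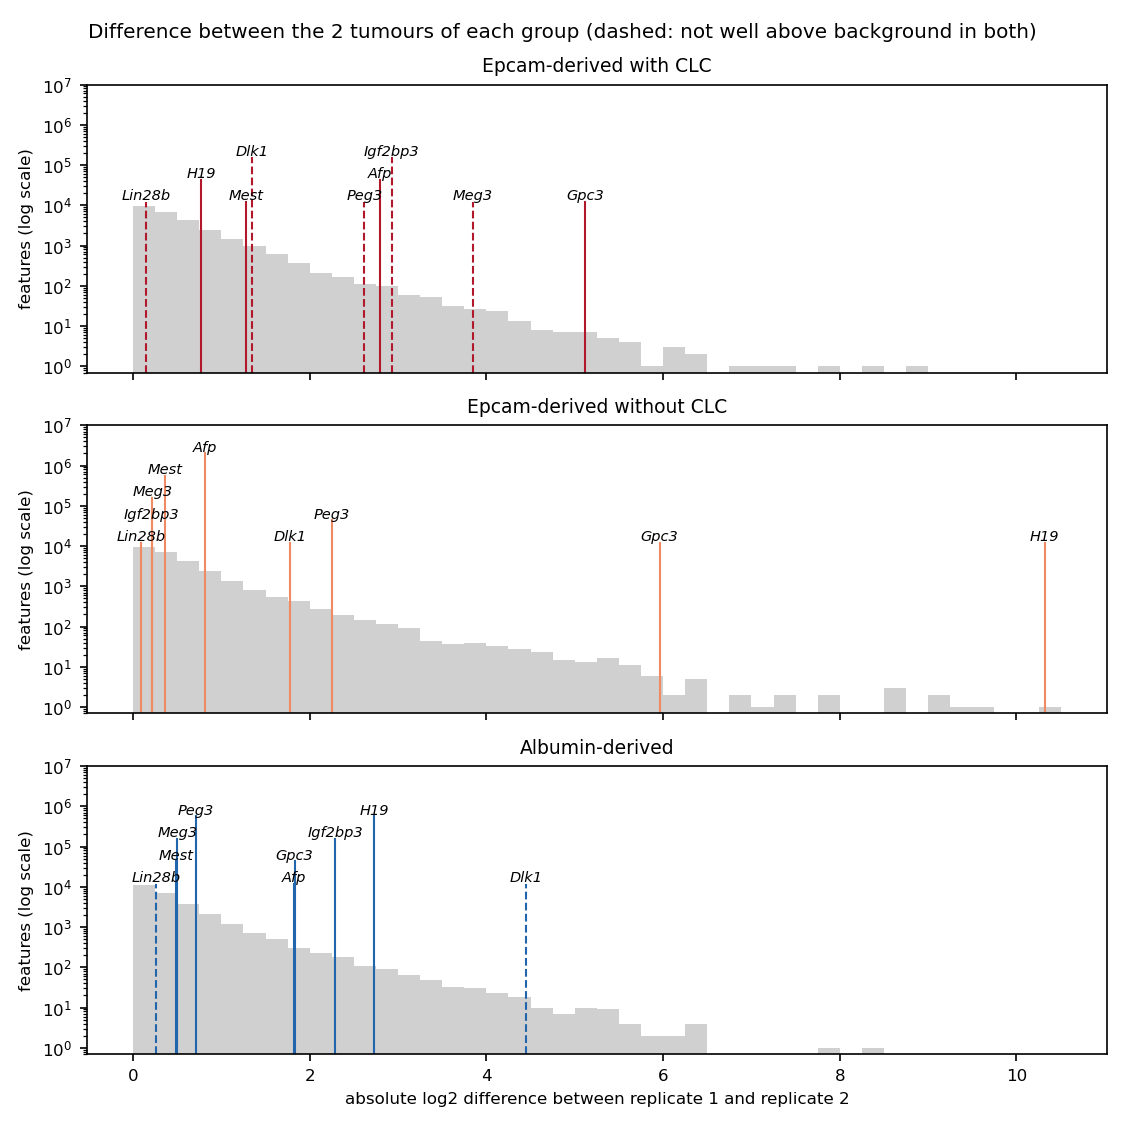
Absolute log2 difference between the 2 tumours of each group (horizontal axis) for all 27412 features as grey bars (number of features, log axis) with the 9 tested members marked by lines whose heights carry no value, dashed where a tumour of the group was not well above background for that member. H19 is the farthest feature to the right in Epcam-derived tumours without CLC, at 10.32. Features that did not pass the filter, Igf2 among them, are not shown.

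By the features most like each member over the 6 tumours (Pearson r, among about 6564 features with an SD of at least 0.5 and no p attached), H19 was followed by Samd12 (0.976), Spred2 and Slc30a1 (0.964 each), and Gpc3 by Zfp963 (0.986), Parp12 (0.985) and Pard6b (0.981). Afp was followed by Prss50 (0.987), Elf3 (0.981) and Gramd1b (0.974), Igf2bp3 by Gm28321 (0.990), Serpinb8 (0.985) and Zfp275 (0.984), and Dlk1 by Hoxa5 (0.980), Olfr750 (0.960) and Paupar (0.951). The 3 nearest were Dthd1 (0.979), Olfr1122 and Olfr149 (0.978 each) for Meg3, Olfr557, Acvr1b (0.965 each) and Kantr (0.964) for Peg3, Olfr45 (0.997), Pisd-ps3 (0.983) and the agouti gene a (0.980) for Mest, and Mrgprb1 (0.979), Aldh1b1 (0.977) and Ccna1 (0.976) for Lin28b. With 6 points, between 5 and 48 features reached r of 0.95 with each member, and the tumours share slides and groups.

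The receptors, binding proteins and proteases of the insulin-like growth factor (IGF) axis were measured for 18 of 19 genes, and 0 passed the adjusted threshold in any comparison. Igf1r and Insr, the receptors that transmit the Igf2 signal, lay between -3.02 and -1.30 and between -0.89 and -0.23, and Igf2r, which clears Igf2, between 1.18 and 1.84. The secreted binding protein Igfbp6, which prefers Igf2 over Igf1, was at -0.22 and 2.58 with CLC, -1.91 and -3.81 without CLC, and 6.47 and 5.71 in Albumin-derived tumours. All 3 groups were apart, with tumours without CLC lowest. The Igfbp6 difference was -8.95 ± 1.06 for without CLC minus Albumin-derived, 494-fold lower (limma adjusted p = 0.0568), -4.92 ± 1.06 for with CLC minus Albumin-derived (adjusted p = 0.140) and 4.03 ± 1.06 for with CLC minus without CLC (adjusted p = 0.999). Over the alternatives its first difference ranged from -9.90 to -7.77, with adjusted p from 0.0303 to 0.195.

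Several binding proteins were higher in replicate 1 than in replicate 2 without CLC, the tumours that parted for H19 and Igf2. The difference was 4.28 for Igfbp1, 4.50 for Igfbp2, 3.0 for Igfbp3, and 4.34 for Igfbp5. Pappa, a protease that frees IGF from its binding proteins, was not well above background in replicate 2 and was at least 21.5-fold higher in replicate 1, while Igfbp4, Igf2r and Insr differed by -0.41, -0.21 and 0.19. These genes were picked out after their values were seen. Between groups, Igfbp2 was at -3.03 ± 1.43 for without CLC minus Albumin-derived and -3.26 ± 1.43 for with CLC minus Albumin-derived, and Pappa at -2.41 ± 2.17 and -3.56 ± 2.17. Igfbp3 and Igfbp5 were at -1.19 ± 1.35 and 1.17 ± 1.33 for with CLC minus without CLC, and both turned sign when 1 tumour without CLC was left out.

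**Figure D5:**
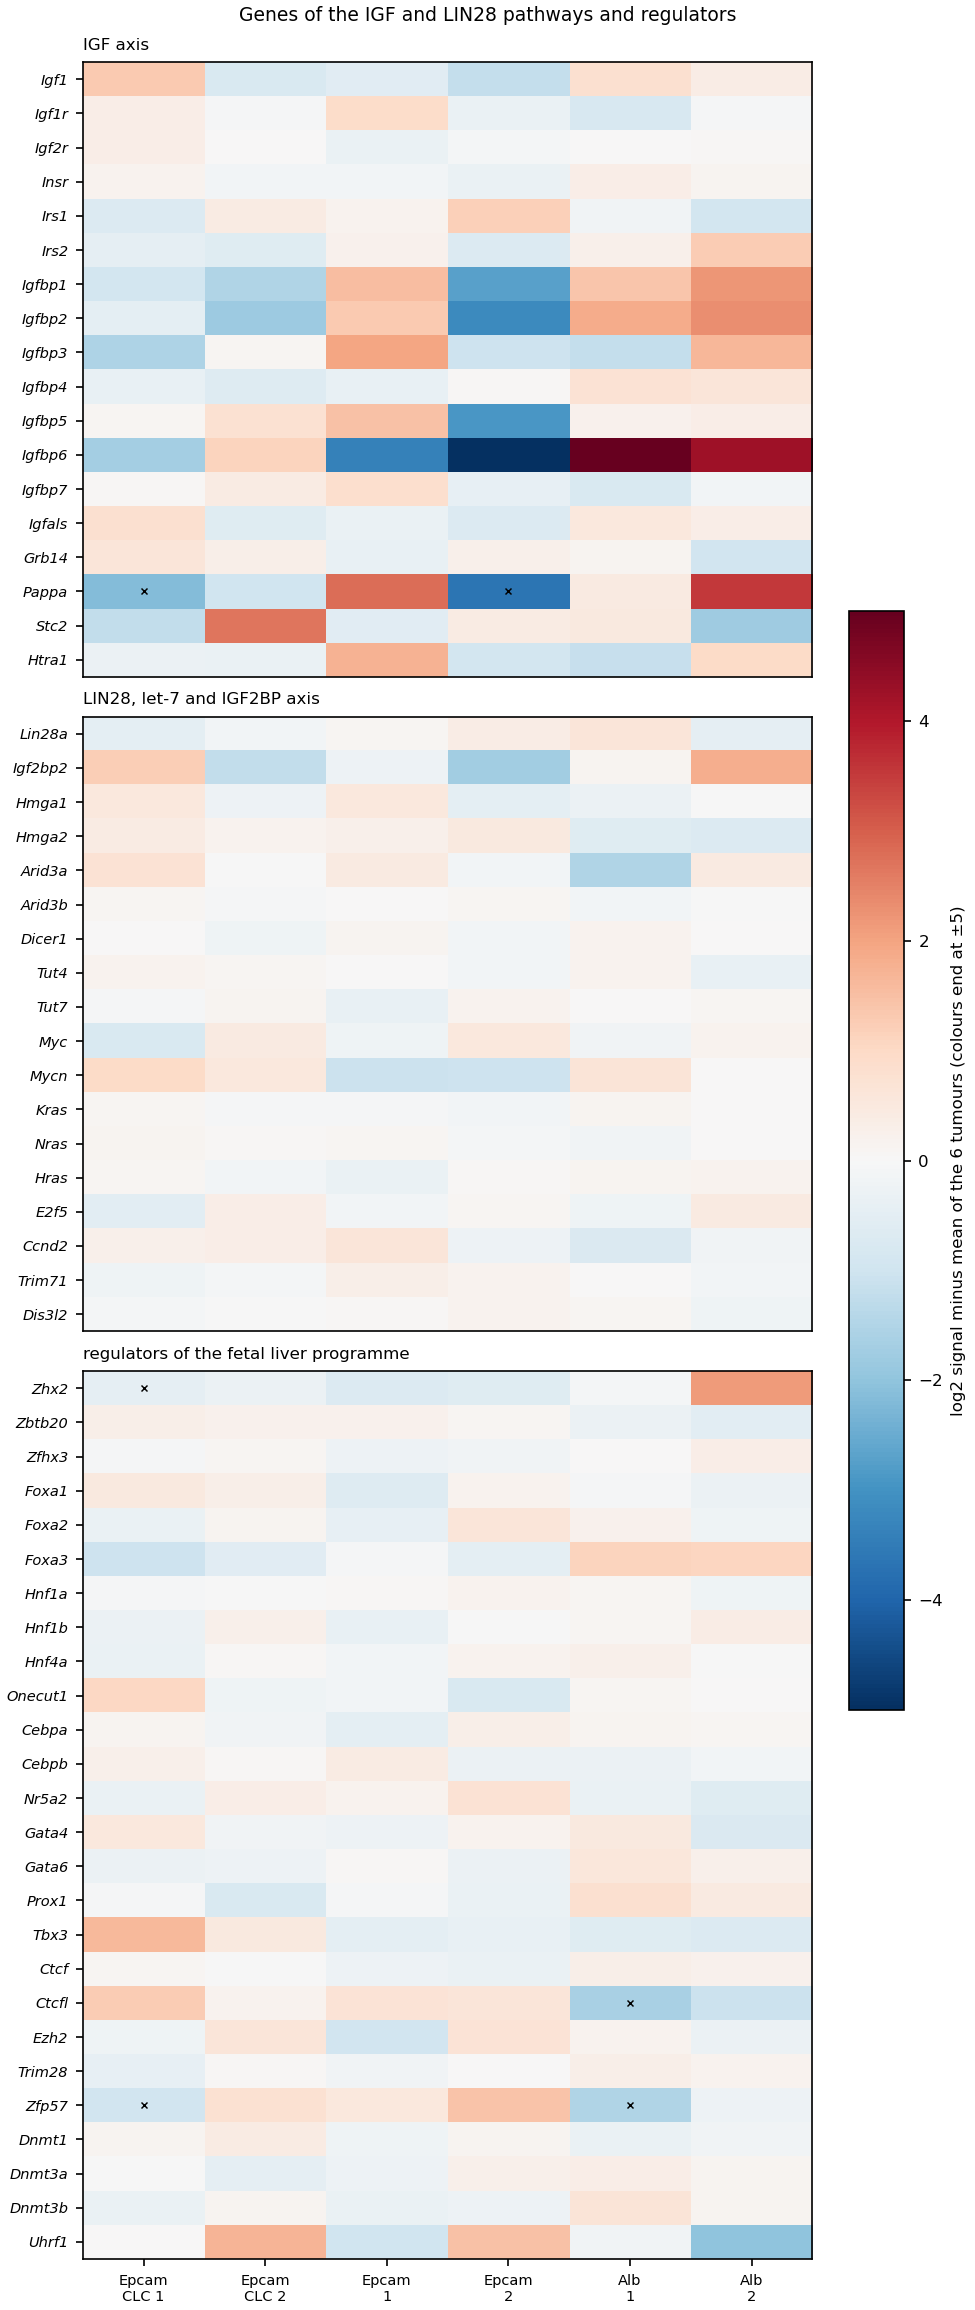
Measured genes of the IGF axis, the LIN28 axis and regulators of the fetal liver programme (rows) in the 6 tumours (columns); colour is log2 signal minus the gene's mean over the 6 tumours, ending at 5 in either direction, and a cross marks a value not well above background. Igfbp6 is highest in both Albumin-derived tumours, and Igfbp1, Igfbp2, Igfbp3, Igfbp5 and Pappa part the 2 Epcam-derived tumours without CLC.

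Of 32 other imprinted genes, 24 were measured and 0 passed in any comparison, with medians of 0.06, 0.03 and 0.01 in the order used above. Plagl1, a zinc finger gene that regulates a network of imprinted genes, was at -0.79 and -2.11 with CLC, -3.65 and -1.96 without CLC, and 2.05 and 0.51 in Albumin-derived tumours. Every Epcam-derived tumour was below both Albumin-derived tumours, with differences of -4.08 ± 0.82 for without CLC minus Albumin-derived and -2.73 ± 0.82 for with CLC minus Albumin-derived (limma, adjusted p = 0.102 and 0.220). In the other direction, Ascl2, a transcription factor gene, was not well above background in either Albumin-derived tumour. It was at least 2.09-fold higher without CLC than in Albumin-derived tumours. No p is given for Ascl2, since its fitted difference rests on signal that was not measured there. Gatm, for a creatine synthesis enzyme, was at 1.98 ± 0.53 for with CLC minus Albumin-derived (limma adjusted p = 0.190). Ddc was at 1.73 ± 0.88 in the first of these comparisons and Slc22a3 at 1.98 ± 1.04 in the second, and with CLC minus without CLC gave 2.30 ± 1.04 for Slc22a3, 1.36 ± 0.82 for Plagl1 and -0.82 ± 0.56 for Mirg. Cdkn1c, a cell cycle inhibitor imprinted near Igf2, lay between -0.98 and 1.59.

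Of the 21 names on the list of the LIN28, let-7 and IGF2BP axis, 18 were measured and 0 passed. Mycn, a growth regulator in the let-7 pathway, was at -2.21 and -2.64 with CLC, -4.23 and -4.20 without CLC, and -2.53 and -3.12 in Albumin-derived tumours. The tumours without CLC were the lowest, by 1.79 ± 0.32 for with CLC minus without CLC (limma adjusted p = 0.940) and -1.40 ± 0.32 for without CLC minus Albumin-derived (adjusted p = 0.122). Hmga2, a let-7 target, was at 1.01 ± 0.25 for without CLC minus Albumin-derived and 0.94 ± 0.25 for with CLC minus Albumin-derived (adjusted p = 0.139 and 0.192). Igf2bp2 differed by 0.99 ± 1.03, -1.98 ± 1.03 and -0.99 ± 1.03 in the 3 comparisons, Lin28a by -0.56 ± 0.42 for with CLC minus without CLC and Arid3a by 0.88 ± 0.69 for with CLC minus Albumin-derived. Igf2bp1 did not pass the filter.

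All 26 regulators of the fetal liver programme were measured and 0 passed. Zhx2, a repressor of Afp, H19 and Gpc3 after birth in mice, was at -4.58 and -4.41 with CLC, -4.81 and -4.72 without CLC, and -4.24 and -1.98 in Albumin-derived tumours. It was highest in Albumin-derived replicate 2, the tumour with the highest Afp. Zbtb20 and Zfhx3, known as repressors of Afp, lay between 2.15 and 3.0 and between 0.32 and 0.89. Foxa3, a pioneer factor gene of hepatocytes, was at -1.90 ± 0.31 for with CLC minus Albumin-derived (limma adjusted p = 0.102), and Ctcfl, a relative of the insulator protein CTCF, at 2.01 ± 0.44 for without CLC minus Albumin-derived and 2.07 ± 0.44 for with CLC minus Albumin-derived (adjusted p = 0.115 and 0.135). For with CLC minus without CLC, Tbx3, a hepatoblast factor, was at 1.48 ± 0.42, Zfp57, which keeps imprints methylated, at -1.07 ± 0.72 and Onecut1 at 0.85 ± 0.48 (adjusted p = 0.999 for each). Zfp57 and Zhx2 were at 1.85 ± 0.72 and -1.65 ± 0.72 for without CLC minus Albumin-derived, and Uhrf1 at 1.95 ± 1.07 for with CLC minus Albumin-derived.

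Of 30 names on the list of other oncofetal and hepatoblast markers, 28 were measured and 1 passed. Lpl, lipoprotein lipase of fetal liver, fell to 2.22 and 2.31 in tumours with CLC, against 5.61 and 5.31 in Albumin-derived tumours, and was at 4.12 and 3.91 without CLC. The Lpl difference of -3.20 ± 0.26 for with CLC minus Albumin-derived passed limma's threshold (adjusted p = 0.0460), in a comparison in which 0.0511% of all features passed as lower and 0.0109% as higher. That call held under 4 of 17 alternatives, normexp background, quantile and median scaling and a filter on all 6 arrays, and was lost under 13, among them leaving out any 1 of the 6 tumours, slide or replicate as a block and 2 groups only. Over all of these the difference ranged from -3.35 to -2.88, with adjusted p from 0.00904 to 0.218. Lpl was at -1.75 ± 0.26 for with CLC minus without CLC (adjusted p = 0.729).

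Bex2, an embryonic gene of the brain-expressed X-linked family, was at -4.54 and -5.21 with CLC, -2.18 and -6.85 without CLC, and 1.98 and 3.17 in Albumin-derived tumours. With-CLC replicate 1 and replicate 2 without CLC were not well above background, and no Epcam-derived tumour reached the Albumin-derived ones. The Bex2 difference was -7.45 ± 1.47 for with CLC minus Albumin-derived and -7.09 ± 1.47 for without CLC minus Albumin-derived (limma, adjusted p = 0.123 and 0.107). Igdcc4, a surface protein of fetal liver progenitors, was at -4.08 ± 1.41 with CLC and -2.60 ± 1.41 without CLC against Albumin-derived tumours. Tff3, a secreted mucosal peptide, was at -3.91 ± 0.64 for with CLC minus Albumin-derived and -2.60 ± 0.64 for with CLC minus without CLC (adjusted p = 0.105 and 0.999). Bex1 was at -2.53 ± 2.10 for with CLC minus without CLC, and Prom1 at -2.20 ± 1.56 for without CLC minus Albumin-derived.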

How the data were processed

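RNA from 6 frozen tumours was labelled with Cy3 from 0.1 µg of total RNA and hybridised to 1 array each, per the labels' protocols. Per the file headers, Agilent Feature Extraction 11.5.1.1 gave each spot an intensity; its processed signal has the background subtracted and is unscaled between arrays. Each spot also carries marks of 0 or 1 (well above background, saturated, outlier) in the deposited files. A further deposited file by the authors is a table of intensity values, each column of which equalled that array's processed signal multiplied by a constant (1.64 to 2.42, column medians 55.0 to 80.0): it is linear, not centred and of the same direction, and what set the constants is unknown.

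Outlier spots were dropped. A level is log2 of processed signal, less the 75th percentile of that log2 value over the array's 59305 spots other than controls. Replicate spots of a probe were averaged, and such a probe was called well above background when a share of 0.5 or more of them were. The filter kept the 34776 probes with that call in both tumours of any group. The design is annotated on mm9, and accessions were named through RefSeq (GRCm38.p6, names only; 32994 probes received a symbol), with the probe of highest mean standing for a gene, which gave 27412 features. Features without a symbol kept the name in the deposited tables and were collapsed by it; a first run had kept them as single probes.

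Groups were compared with limma 3.58.1 (lmFit, eBayes) in R 4.3.3 (files were read with jsonlite 2.0.0 and data.table, version 1.17.8), in 1 fit of 6 arrays with 3 residual and 2.62 prior degrees of freedom, two-sided, with Benjamini-Hochberg adjustment over all features and a threshold of 0.05. Groups of 2 are too few for an exact permutation test. The fit was tested on simulated data. Where neither tumour of a group was well above background the fold is a bound, written "at least": in each such tumour the larger of the probe's own signal and the lowest signal called well above background stood for the probe, and the mean of these was set against the mean of the brighter group. Alternatives were normexp background with an offset of 50 (on the median spot signal, since no mean signal was in the tables used), quantile and median scaling, the authors' table, other filters, the mean of probes, slide and replicate as blocks, 2 groups only and each array left out. The spread that a list's median had to pass to count as moved was also set after the files were read.

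The members, gene lists and named genes were chosen with earlier results of these data known. Named were all members, from each list every gene past the threshold and the 3 with the largest difference in each comparison, and fixed receptors and repressors. Some list names are older names of the same gene. The 300 kb window, the ranking of replicate differences and the contrast of binding proteins between 2 tumours were chosen after their values were seen. The lists of context genes were described by counts and medians, with no set test.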

Additional observations from a re-analysis of the deposited data

How the results depend on the processing

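No member passed limma's threshold under any alternative; the lowest adjusted p was 0.131, and 0.163 with 1 array left out. Under the alternatives other than leaving out 1 array, 229 member differences kept their sign and 17 turned. These counts leave out Lin28b differences from Albumin-derived tumours, which rest on signal that was not measured and whose sign has no reading. Part of the 229 could not turn. Dropping the filter, the stricter filter, the replicate block and the fit of 2 groups only leave a tested member's difference between group means unchanged. Slide as a block and within slide gave the same differences, so both counts hold these more than once. The counts therefore do not measure how stable the signs are. For with CLC minus without CLC, slide as a block and within-slide values turned Afp to 1.23, Gpc3 to 2.10, Meg3 to 0.85 and Igf2bp3 to 0.24, normexp turned Lin28b to 0.10 and the mean of probes Mest to 0.01. For without CLC minus Albumin-derived, H19 turned to 0.22 (normexp), 0.18 (authors' table) and 0.18 (mean of probes), and the fitted Lin28b value was -0.38 (normexp), -0.10 (quantile) and -0.05 (median). For with CLC minus Albumin-derived, Gpc3 turned to -1.03 (slide block and within slide), Meg3 to 0.10 (normexp) and 0.13 (authors' table), and the fitted Lin28b value was 0.19 (authors' table). The authors' table moved the median of all features to 0.37 and 0.31 in the 2 comparisons with Albumin-derived tumours and normexp to -0.16 and -0.12; relative to those medians H19 was -0.20 and 0.38 and Meg3 (with CLC minus Albumin-derived) -0.18 and 0.22, in that order. The other causes were not tested.

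With 1 array left out, the range for with CLC minus without CLC was -1.55 to 1.23 for Afp, -3.45 to 2.52 for Gpc3, -8.42 to 1.89 for H19, -3.0 to 0.85 for Meg3, -0.68 to 0.60 for Mest and -2.69 to 0.24 for Igf2bp3. For without CLC minus Albumin-derived it was -0.99 to 4.98 for Gpc3, -5.29 to 5.02 for H19, -2.62 to 1.83 for Dlk1 and -0.92 to 1.33 for Peg3. The fitted Lin28b value in that comparison, -0.09 to 0.17, rests on signal that was not measured in Albumin-derived tumours. For with CLC minus Albumin-derived the range was -1.03 to 4.09 for Gpc3, -3.88 to 0.57 for Dlk1 and -2.11 to 1.73 for Meg3. Of the context genes, Igf2bp2 turned to -0.26 and 0.26 and Bex1 to 0.56 (slide block and within slide), and the ranges were -2.69 to 0.31 (Igfbp3), -1.0 to 3.33 (Igfbp5), -0.26 to 2.23 and -2.23 to 0.26 (Igf2bp2), -5.63 to 0.56 (Bex1), -5.62 to 0.81 (Pappa), -4.76 to 0.36 (Prom1) and -0.10 to 1.86 (Arid3a).

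Features past the threshold were 0 between tumours with and without CLC in all alternatives. Between tumours without CLC and Albumin-derived tumours they were 67, and 135 (normexp), 107 (quantile), 106 (median), 129 (authors' table, 48.8% of them higher against 23.9%), 1 (no filter), 32 (filter on all 6 arrays), 110 (mean of probes), 16 (2 groups only) and 0 to 16 with 1 array left out. Between tumours with CLC and Albumin-derived tumours they were 17, and 66 (normexp, 9.09% higher against 17.6%), 66 (quantile), 35 (median), 1 (no filter), 0 (slide as a block, within slide, 2 groups only) and 0 with any array left out. With the replicate block these 2 counts were 11 and 0. The correlation of same-numbered deviations was 0.23, -0.16 and 0.06 between pairs of groups. Whether same-numbered tumours share more than a number is not in the labels, and these correlations cannot decide it.

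List medians moved by more than the spread between replicates as follows. For the IGF axis the authors' table gave -0.33 without CLC and 0.05 with CLC against Albumin-derived tumours. For the LIN28 axis slide as a block and within slide gave -0.05 for with CLC minus without CLC and 0.11 for with CLC minus Albumin-derived, median scaling 0.01 and -0.07, the authors' values 0.42 and 0.31, the mean of probes -0.05 and -0.08 (without CLC, then with CLC, minus Albumin-derived) and quantile 0.08 (with CLC). For the regulators, in the same 2 comparisons, median scaling gave -0.18 and -0.10, the authors' values 0.22 and 0.28, the mean of probes -0.21 (without CLC), and quantile 0.14, the filter on all 6 arrays -0.09, slide as a block and within slide -0.10 (with CLC). With 1 array left out, medians for with CLC minus without CLC ranged from -0.47 to 0.54 (IGF axis), -0.05 to 0.11 (LIN28 axis), 0 to 0.25 (regulators) and -0.35 to 0.66 (other oncofetal markers). For without CLC minus Albumin-derived they ranged from -0.95 to -0.09, -0.01 to 0.10, -0.37 to 0.13 and -0.23 to 0.48 in that order. For with CLC minus Albumin-derived they ranged from -0.01 to 0.11 (LIN28 axis), -0.13 to 0.14 (regulators) and -0.27 to 0.47 (other oncofetal markers). The number of arrays and dim signal, as for Lin28b, limit what can be told.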
